A study of Mus musculus with 20 samples.

Results

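The 10 genes Gpam, Gpat3, Gpat4, Agpat1, Agpat2, Agpat3, Lpin1, Dgat1, Dgat2 and Pck1 encode enzymes that build triglyceride in fat cells, and they were chosen by name from the 56805 genes counted in each library. All 10 had enough reads to be tested, among 21306 tested genes. Messenger RNA of white adipose tissue was sequenced in 20 mice of 4 groups with 5 mice each. The chow water group ate chow and drank water, the chow tea group ate chow and drank a water extract of Tibetan tea, and the high-fat water and high-fat tea groups received a high-fat diet with the same drinks, all for 10 weeks. Tibetan tea is a fermented dark tea. The fat depot, strain, sex and age of the mice and the dose of tea are not stated in the labels.

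Fat cells store energy as triglyceride, which is a glycerol backbone carrying fatty acids. The backbone enters as glycerol 3-phosphate, made from glucose or, in glyceroneogenesis, from pyruvate by a route whose cytosolic control step is Pck1. Acyltransferases of the GPAT and AGPAT families then add fatty acids to give lysophosphatidate and phosphatidate, lipins remove the phosphate to leave diacylglycerol, and the DGAT enzymes add the last fatty acid.

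**Figure D1:**
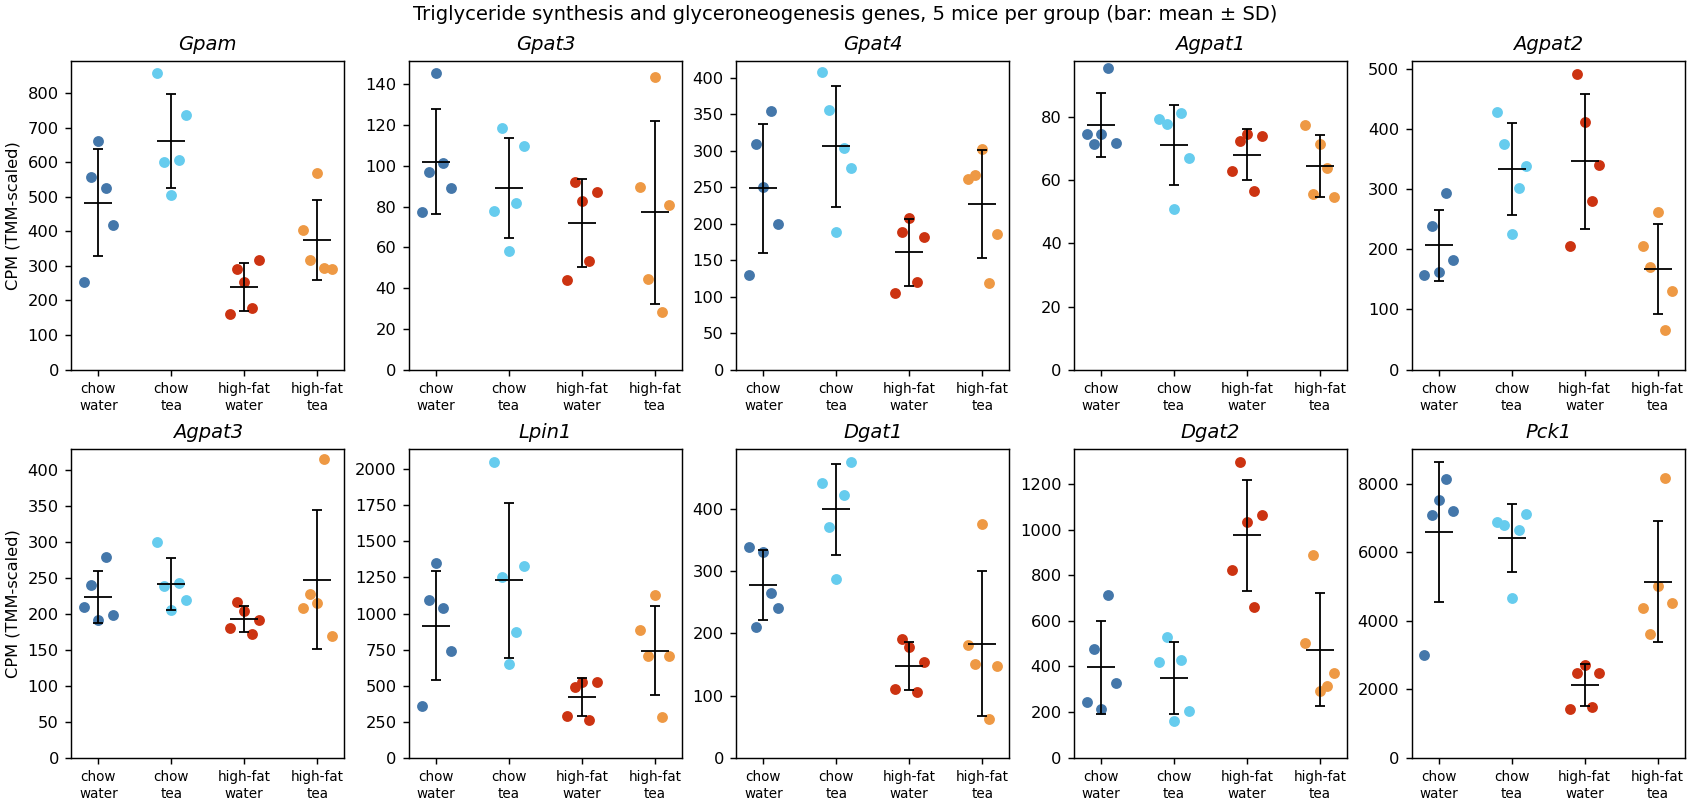
CPM of each of the 10 genes in each of the 20 libraries, by group, with the mean ± SD as bars and 1 point per mouse, on an axis from 0 for each gene. The 5 high-fat water libraries lie lowest for Pck1, at 1436 to 2713 CPM, and high for Dgat2, at 659.1 to 1296 CPM.

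Levels are counts scaled to a common read total (CPM) on a library size scaled between libraries, and changes were tested with the quasi-likelihood F test of edgeR, with Benjamini-Hochberg adjustment over all tested genes. Calls were made where that p was below 0.05. The libraries held 53047057 to 93314761 reads in genes, and the lowest count of a member in any library was 1829 (Gpat3), so that the spread between mice, not the depth, was the larger part of the error. The p-values measure the spread between these mice together with tissue sampling and library preparation. In bulk tissue, fewer cells of a type and less RNA per cell cannot be told apart.

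The 10 adipocyte markers, among them Adipoq, Plin1 and Fabp4, were detected in all 20 libraries. Their summed level was 17360 to 55160 CPM in chow water, 44300 to 60820 in chow tea, 20850 to 36410 in high-fat water and 10700 to 54800 in high-fat tea. Another organ's marker list summed to over 10000 CPM in 5 libraries, namely pancreas in chow water replicate 1 (36.9% of its reads), muscle in replicate 5 of high-fat water and replicate 1 of high-fat tea, both adrenal cortex and the list of seminal vesicle, epididymis and testis in high-fat water replicate 4, and kidney in high-fat tea replicate 4. Replicate 1 of chow water, replicate 4 of high-fat water and replicate 4 of high-fat tea each held the lowest adipocyte level of their groups. The first of these was lowest of its group for 6 of the 10 members, the others for 5 each, and chow tea replicate 3, the lowest of its group for the adipocyte list, for all 10. High-fat water replicate 1 was also lowest of its group for 5 members, although its adipocyte level, 35870 CPM, was the group median. Its macrophage markers, at 3643 CPM, were the highest of the group. Kidney and liver express Pck1 for glucose synthesis, so kidney values stand beside the Pck1 results. Liver markers summed to 3701 CPM in chow water replicate 1 and 2015 CPM in high-fat tea replicate 4, and to at most 233.6 CPM in the other libraries.

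Compared per base of exon, as RPKM, Pck1 was the most abundant member in every group. In chow water its mean level was 1923 ± 598 RPKM (SD, n = 5), above Dgat2 at 128.3, Agpat2 at 97.0, Lpin1 at 92.2, Dgat1 at 90.8 and Gpam at 72.4 RPKM. Gpat4 followed at 37.2, Gpat3 at 29.1, Agpat3 at 28.8 and Agpat1 at 25.9 RPKM. Of these neighbours in the order, Pck1 and Dgat2 were the only pair in chow water whose libraries did not overlap. In high-fat water the lead of Pck1 was narrower, with 616.5 ± 178 RPKM (SD, n = 5) against 316.4 ± 79.2 RPKM (SD, n = 5) for Dgat2, and the ranges of the libraries met. The ratio of Pck1 to Dgat2 RPKM was 10.3 to 31.5 in chow water, 11.6 to 31.1 in chow tea, 1.57 to 2.36 in high-fat water and 3.66 to 23.2 in high-fat tea, so the high-fat water libraries lay below all others.

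In GRCm39, Gpat3 lies on chromosome 5 at 100993579 to 101046968 on the plus strand, Gpat4 on chromosome 8 at 23661281 to 23698362 on the minus strand, Agpat1 on chromosome 17 at 34823236 to 34832423 on the plus strand and Agpat2 on chromosome 2 at 26483069 to 26494429 on the minus strand. Agpat3 lies on chromosome 10 at 78105012 to 78188323, Lpin1 on chromosome 12 at 16585670 to 16696967, Dgat1 on chromosome 15 at 76386215 to 76396153 and Dgat2 on chromosome 7 at 98802865 to 98831926, all on the minus strand. Pck1, the cytosolic phosphoenolpyruvate carboxykinase, lies on chromosome 2 at 172994841 to 173001066 on the plus strand. Its promoter is a textbook case of control by cyclic AMP through a response element close to the start site. Gpam, the mitochondrial glycerol-3-phosphate acyltransferase, lies on chromosome 19 at 55055700 to 55115670 on the minus strand. The sequences before the starts of these members, both called lower in high-fat water than in chow water, are shown from RefSeq, in the GRCm38.p6 build, as chr2:173152823-173153047 on the plus strand for Pck1 (225 bases, ending before the transcript) and chr19:55127239-55127488 on the minus strand for Gpam (250 bases). Capitals mark CGTCA in Pck1, which is TGACG on the other strand and lies 90 to 86 bases before the start, and ATTGG in Gpam, which is CCAAT on the other strand and lies 74 to 70 bases before the start.
Pck1: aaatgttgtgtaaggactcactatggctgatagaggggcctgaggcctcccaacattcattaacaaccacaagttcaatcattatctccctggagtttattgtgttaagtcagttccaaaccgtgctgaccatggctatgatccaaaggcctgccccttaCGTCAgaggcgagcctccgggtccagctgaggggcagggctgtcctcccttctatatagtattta
Gpam: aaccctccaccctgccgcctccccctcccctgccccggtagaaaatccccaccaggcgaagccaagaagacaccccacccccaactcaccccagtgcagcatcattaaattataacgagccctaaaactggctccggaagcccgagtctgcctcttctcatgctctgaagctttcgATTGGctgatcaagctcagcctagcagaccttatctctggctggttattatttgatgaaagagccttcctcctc

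RefSeq promoters were found for 7 of the 10 members, in 9 windows of 250 bases before the start, with none matched for Gpat4, Dgat1 and Dgat2. Searched on both strands, TGACG (part of the full element TGACGTCA) was present for Gpam, Gpat3 and Pck1 and in 17.8% of 32851 mouse promoter windows. CCAAT was present for Agpat1 and Gpam and in 33.8% of all windows, and the GC box GGGCGG for Agpat1, Agpat2, Gpam, Gpat3 and Pck1 and in 32.7%. For Gpam, TGACG and the GC box lay in another window, chr19:55099478-55099727, which is not printed above. The GC box of Pck1, 16 to 11 bases before the RefSeq start, lies past the end of the printed part. That part stops ahead of the RefSeq start, at the first base annotated as transcribed. Distances for Pck1 are counted from the RefSeq start. In none of the 9 member windows were found TGACGTCA (1.55% of all windows), the E-box CACGTG (6.02%), TCACNCCAC (1.05%), TTATGTAA (0.819%), TTGCGCAA (0.164%), the PPAR response element (0.0335%) or the glucocorticoid response element (0.387%). These matches describe letters in a short window only.

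The comparison of high-fat water with chow water gives the change with diet in water-drinking mice. Pck1 and Gpam fell and Dgat2 rose, so that 3 of the 10 members were called, where 15.2% of all tested genes were called. The 1 member called higher compares with 8.06% of all tested genes, and the 2 called lower with 7.11%. The median log2 change of the 10 members was -0.57 and that of all tested genes -0.00247, with 8 members below 0 and Agpat2 and Dgat2 above 0. For 2 members (Pck1 and Dgat1) the libraries of the groups did not overlap, against 12.9% of all tested genes. An unadjusted p below 0.05 was reached by 7 members, against 30.8% of all tested genes. DESeq2, an alternative count model, called 1 member higher and 4 lower, where it called 20.7% of all tested genes (2146 higher, 2255 lower), and edgeR with no scaling 1 higher and 1 lower. Without high-fat water replicate 1, only Pck1 was called, where 8.69% of all tested genes were called. Over all tested genes, 1718 were called higher and 1514 lower, and 3127 and 575 with no scaling.

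**Figure D2:**
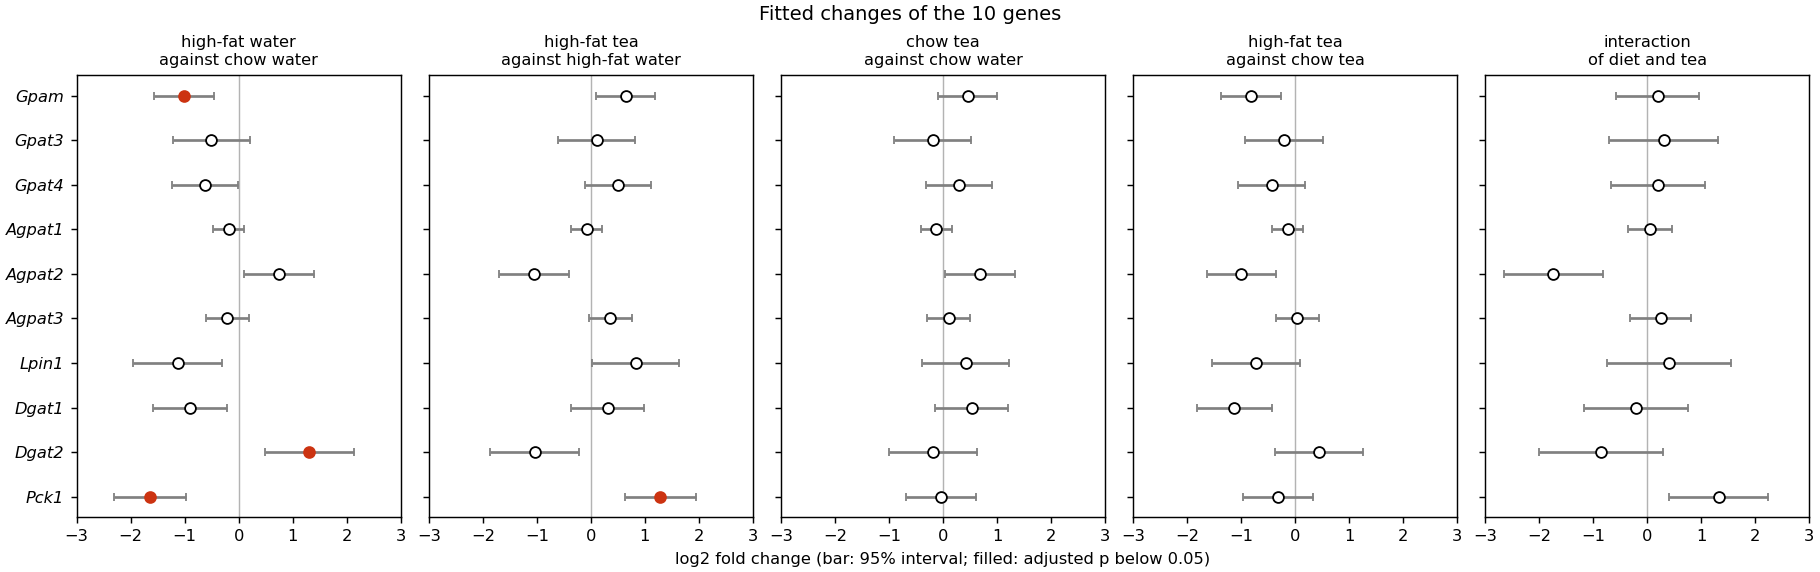
Fitted log2 fold change of each of the 10 genes in each of the 5 comparisons, with the 95% interval as a bar and filled points for an adjusted p below 0.05. Pck1, Gpam and Dgat2 are filled for high-fat water against chow water, Pck1 for high-fat tea against high-fat water, and none in the other 3 comparisons.

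For Pck1, the chow water libraries held 3002, 7089, 7527, 8150 and 7210 CPM and the high-fat water libraries 1436, 2459, 2713, 1474 and 2488 CPM. Every chow water library was above every high-fat water library, although chow water replicate 1, the library with pancreatic transcripts, came close. Pck1 fell by 1.64 on the log2 scale (SE 0.316, adjusted p = 0.00317 by edgeR), which is 3.12-fold. Kidney markers summed to 2.71 to 1888 CPM in chow water and 5.51 to 45.5 CPM in high-fat water, and with the kidney list as a covariate Pck1 fell by 1.60 (adjusted p = 0.0028 by edgeR). The call held in all 22 alternative fits, with log2 changes of -1.999 to -1.47 for Pck1.

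For the glycerol-3-phosphate acyltransferases, which start the pathway, Gpam was at 254.2, 555.7, 660.6, 523.9 and 418.4 CPM in chow water and at 160.5, 291.8, 252.3, 177.1 and 318.1 CPM in high-fat water. Only chow water replicate 1 overlapped with the high-fat water libraries. Gpam fell by 1.01 on the log2 scale (SE 0.262, adjusted p = 0.0164 by edgeR), which is 2.01-fold. The Gpam call was lost without high-fat water replicate 1 (log2 change -0.89, adjusted p = 0.05) and with no scaling beyond library size (-0.83, adjusted p = 0.0646), a setting that moved the median of all tested genes from -0.00247 to 0.259. The endoplasmic reticulum enzymes of this step were not called. Gpat3, described as the main GPAT of fat cells in culture, had a log2 change of -0.51 (adjusted p = 0.33), with 37.4% of its exonic bases shared with other annotated genes, and Gpat4 one of -0.63 (adjusted p = 0.152).

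The AGPAT enzymes, which make phosphatidate, gave no call. Agpat2, whose loss causes congenital lipodystrophy, had 157, 238.1, 161.9, 294 and 181.5 CPM in chow water and 205.2, 491.2, 412, 280 and 340.3 CPM in high-fat water, with a log2 change of 0.74 (SE 0.307, adjusted p = 0.108). The groups overlapped for Agpat2, mostly through chow water replicate 4 and high-fat water replicate 1. Agpat1, the widely expressed form, and Agpat3, which also acts in phospholipid synthesis, had log2 changes of -0.19 and -0.21 (adjusted p = 0.365 and 0.471). Without scaling beyond library size their changes were 0.06 for Agpat1 and 0.03 for Agpat3, both below the median of all tested genes in that setting (0.259).

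Lpin1, the phosphatidate phosphatase that yields diacylglycerol, held 361.9, 1094, 1347, 1038 and 739.5 CPM in chow water and 289.2, 491.2, 526.1, 260.7 and 526.8 CPM in high-fat water. Chow water replicate 1 alone lay among the high-fat water libraries. The log2 change of Lpin1 was -1.13 (SE 0.389, adjusted p = 0.0567), and it was called in 7 of 22 alternative fits, for example at -1.38 without chow water replicate 1 (adjusted p = 0.0182).

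The DGAT enzymes, which close the pathway and are unrelated in sequence, lay on opposite sides of 0. Dgat2 was at 245.8, 475.9, 215.1, 712.3 and 329.1 CPM in chow water and at 821.2, 1296, 1035, 659.1 and 1066 CPM in high-fat water. Chow water replicate 4 exceeded the lowest high-fat water library, and the other chow water libraries were below all 5. Brown fat cell markers summed to 1658 CPM in chow water replicate 4 and 1336 CPM in replicate 2. The other chow water libraries held 39.05 to 170.7 CPM of them. In high-fat water these markers summed to 18.58 CPM (replicate 1) to 1374 CPM (replicate 3). Their part in the Dgat2 values was not tested. Dgat2 rose 2.465-fold, by 1.30 on the log2 scale (SE 0.393, adjusted p = 0.0331 by edgeR), but the call was lost in 12 of 22 alternative fits. With 1 library left out, the Dgat2 change was 1.13 to 1.62, and its adjusted p passed 0.05 in every such fit except those without replicate 4 of chow water or replicate 4 of high-fat water.

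Dgat1 held 339.3, 210.3, 331.4, 264.4 and 241.5 CPM in chow water and 110.4, 191, 178.5, 105.4 and 153.8 CPM in high-fat water. All 5 chow water libraries of Dgat1 were above all 5 high-fat water libraries, while its log2 change of -0.91 (SE 0.326, adjusted p = 0.0661) was not called by edgeR. The highest value, 339.3 CPM, came from chow water replicate 1, the library with pancreatic transcripts. Intestine markers summed to 6497 CPM there, against at most 90.1 CPM in the rest of the group, and their part in this value was not tested. DESeq2 called Dgat1 at an adjusted p of 0.0249.

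The ratio of Dgat2 to Dgat1 RPKM within a library was chosen for description after the values were seen. It was 0.718, 2.24, 0.643, 2.67 and 1.35 in chow water, 0.938, 1.41, 0.562, 1.01 and 0.429 in chow tea, 7.38, 6.73, 5.75, 6.199 and 6.87 in high-fat water, and 2.76, 5.82, 0.767, 5.07 and 2.49 in high-fat tea. The high-fat water ratios were above all chow ratios, and high-fat tea replicate 2 was the only library outside that group that reached the lowest of them. Brown fat cell markers summed to 807.7, 1101, 84.21, 823 and 96.47 CPM in chow tea replicates 1 to 5. Their part in the ratios was not tested. Dgat2 made up 86.7 ± 1.11% (SD, n = 5) of the summed DGAT RPKM in high-fat water, against a mean of 56.1% in chow water, 44.6% in chow tea and 71.4% in high-fat tea. Agpat2 to Agpat1 ratios of RPKM were 2.96 to 4.70 in chow water, 5.225 to 7.59 in chow tea, 4.59 to 9.55 in high-fat water and 1.46 to 5.18 in high-fat tea. The chow groups did not overlap in this ratio, while the high-fat groups did. Agpat2 itself overlapped between the chow groups and was not called (adjusted p = 0.363 by edgeR). The ratios of Agpat2 to Agpat1 and of Pck1 to Dgat2 were likewise not among the planned tests. How often ratios of other gene pairs do not overlap was not measured.

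**Figure D3:**
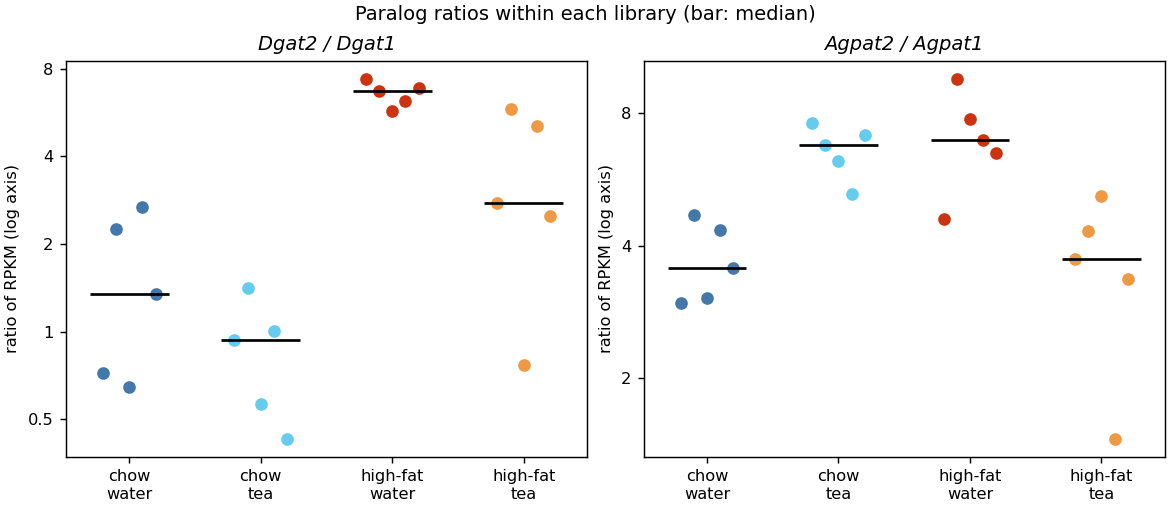
Ratio of RPKM between members of the same enzyme step in each library, by group, on a log axis with the group median as a bar. The Dgat2 to Dgat1 ratio is 5.75 to 7.38 in high-fat water and at most 2.67 in both chow groups.

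The adipocyte list had 1 of its 10 genes called lower and 0 called higher between high-fat water and chow water, with a median log2 change of -0.116, while 4 of 10 macrophage markers were called higher and 1 lower, with a median of 1.00. Among all tested genes, 8.06% were called higher and 7.11% lower. The macrophage list summed to 444.8 to 1479 CPM in chow water and 1324 to 3643 CPM in high-fat water, and its part in the member results was not tested. Without the libraries holding pancreas and kidney transcripts (replicate 1 of chow water, replicate 4 of high-fat tea), an alternative chosen after seeing the data, 5 members were called, all lower, where 21.6% of all tested genes were called (2334 higher, 2331 lower). These were Pck1, Gpam, Gpat4, Lpin1 and Dgat1. With the summed adipocyte level as a covariate, Pck1 fell by 1.63 and Gpam by 0.84 on the log2 scale (adjusted p = 0.00114 and 0.00769 by edgeR), and 6 members were called, 2 higher and 4 lower, where 24.8% of all tested genes were called (2737 higher, 2544 lower).

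High-fat tea was compared with high-fat water to ask for the effect of tea under the high-fat diet. These comparisons share the high-fat water libraries, so changes of opposite sign in the comparison with chow water and in this one are not independent. Pck1 rose, and it was the 1 member called of 10, where 4.36% of all tested genes were called and 2.06% were called higher and 2.3% lower. Pck1 was also the 1 member whose libraries did not overlap, against 5.55% of all tested genes. The median log2 change was 0.335 over the members and 0.0187 over all tested genes, with 7 members above 0, and Agpat1, Agpat2 and Dgat2 below 0. An unadjusted p below 0.05 was reached by 5 members, against 23.6% of all tested genes. Over all tested genes, 439 were called higher and 489 lower, and 102 and 237 with no scaling.

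In high-fat tea, Pck1 was at 4371, 3623, 5022, 8155 and 4505 CPM, all above the highest high-fat water library at 2713 CPM. It rose 2.43-fold, by 1.28 on the log2 scale (SE 0.313, adjusted p = 0.029 by edgeR). The highest value, 8155 CPM, came from high-fat tea replicate 4, in which the 14 kidney markers summed to 25140 CPM, against at most 28.6 CPM in the other high-fat tea libraries, and whose adipocyte list was the lowest of the group at 10700 CPM. The other 4 libraries held 3623 to 5022 CPM and were still above all high-fat water libraries. Without high-fat tea replicate 4 the log2 change of Pck1 was 1.05 (adjusted p = 0.0508), and without the libraries with over 10000 CPM of another organ's list it was 0.99 (adjusted p = 0.0364). With the limit at 1000 CPM, which leaves out 9 libraries, the Pck1 change was 1.07 (adjusted p = 0.183). The Pck1 call was lost in 9 of 22 alternative fits, among them those without high-fat water replicate 1, 2 or 4 and without high-fat tea replicate 3 (adjusted p = 0.0916, 0.0606, 0.0636 and 0.059).

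**Figure D4:**
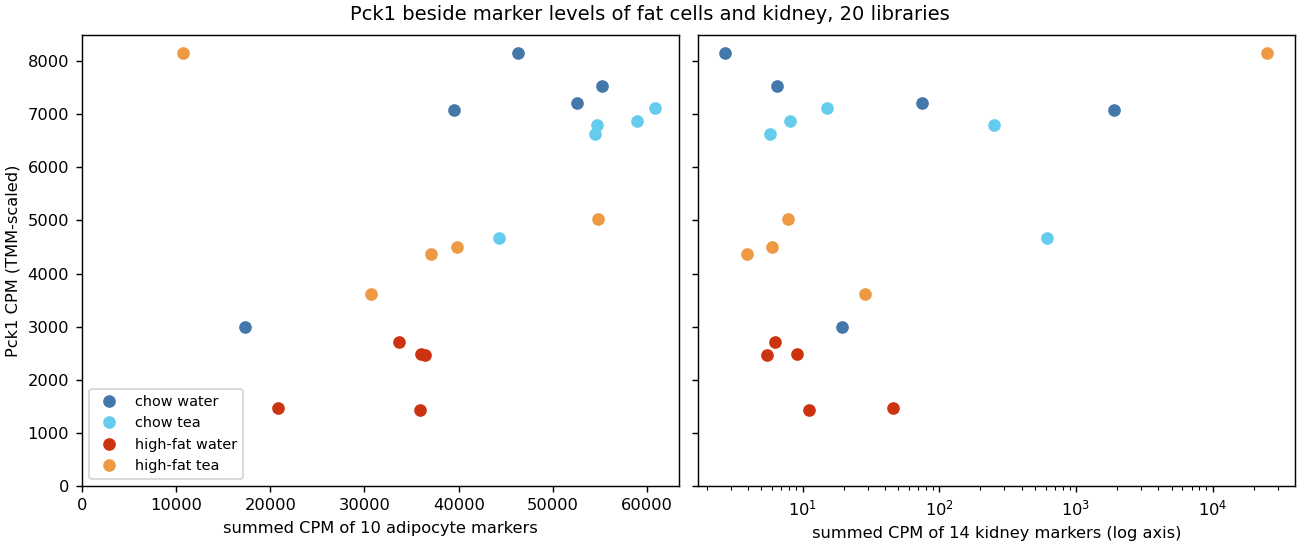
Pck1 CPM in each of the 20 libraries against the summed CPM of 10 adipocyte markers (left) and of 14 kidney markers on a log axis (right), with colours for the groups. High-fat tea replicate 4 stands apart with 8155 CPM of Pck1, 10700 CPM of adipocyte and 25140 CPM of kidney markers, while the other high-fat tea libraries lie between 3623 and 5022 CPM of Pck1, above the high-fat water libraries.

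For Agpat2, the high-fat tea libraries held 205.6, 171, 262.6, 66.1 and 130.6 CPM, 3 of them below all the high-fat water libraries, which held 205.2 to 491.2 CPM. The lowest, 66.1 CPM, came from replicate 4, the library with kidney markers at 25140 CPM and the lowest adipocyte level of the group. The log2 change of Agpat2 was -1.05 (SE 0.309, adjusted p = 0.0593 by edgeR). With 1 library left out it was -1.27 to -0.84 (adjusted p = 0.0551 to 0.144 by edgeR). Agpat2 was called by limma voom (adjusted p = 0.0462) and DESeq2 (adjusted p = 0.0148), which called 5.25% and 11.4% of all tested genes. Dgat2 was at 503.1, 890, 290.5, 315.9 and 371.1 CPM in high-fat tea, where replicate 2 alone overlapped with the high-fat water libraries, and its log2 change was -1.04 (SE 0.391, adjusted p = 0.118). Agpat2 and Dgat2 were the members with the lowest p after Pck1. Brown fat cell markers summed to 819.1 and 1363 CPM in high-fat tea replicates 1 and 2, and to 75.31 to 155.3 CPM in replicates 3 to 5. Their part in the Dgat2 values was not tested.

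Of the other members with negative log2 changes in high-fat water against chow water, all but Agpat1 had positive ones here, and none of these was called. Gpam, at 292.4 to 567.3 CPM in high-fat tea, had a log2 change of 0.64 (adjusted p = 0.144), and Lpin1, at 284.5 to 1128 CPM, one of 0.83 (adjusted p = 0.203). Both ranges overlapped with those of high-fat water, for Lpin1 through replicate 4 of high-fat tea alone. The other high-fat tea libraries held 704.6 to 1128 CPM of Lpin1, above the highest high-fat water library at 526.8 CPM. With 1 library left out, Lpin1 was not called (adjusted p = 0.118 to 0.398 by edgeR). It was called without the libraries with pancreas and kidney transcripts (adjusted p = 0.0446) and with the adipocyte covariate (adjusted p = 0.0472). Gpam was called with that covariate only (adjusted p = 0.0481). Dgat1 had a log2 change of 0.31 (adjusted p = 0.608), from 61.8 to 375.7 CPM, the widest spread of this gene in any group. Its lowest value came from high-fat tea replicate 4, the library with kidney markers, and its highest from replicate 3. With 1 library left out the Dgat1 change was -0.13 (without high-fat tea replicate 3) to 0.53. Gpat4 stood at 0.50 (adjusted p = 0.316), Agpat3 at 0.36 (adjusted p = 0.265), Gpat3 at 0.11 (adjusted p = 0.895) and Agpat1 at -0.08 (adjusted p = 0.785). For Agpat3, high-fat tea replicate 4 held 415.8 CPM, against 169.6 to 227.3 CPM in the other 4 libraries. Between these groups, 0 of 10 macrophage markers were called higher and 2 lower, with a summed level of 491.2 to 1697 CPM in high-fat tea, and their part in the member results was not tested. Of the 10 adipocyte markers 1 was called higher, the complement factor Cfd, which was also the 1 called lower in high-fat water against chow water. Among all tested genes, 2.06% were called higher and 2.3% lower in high-fat tea against high-fat water.

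**Figure D5:**
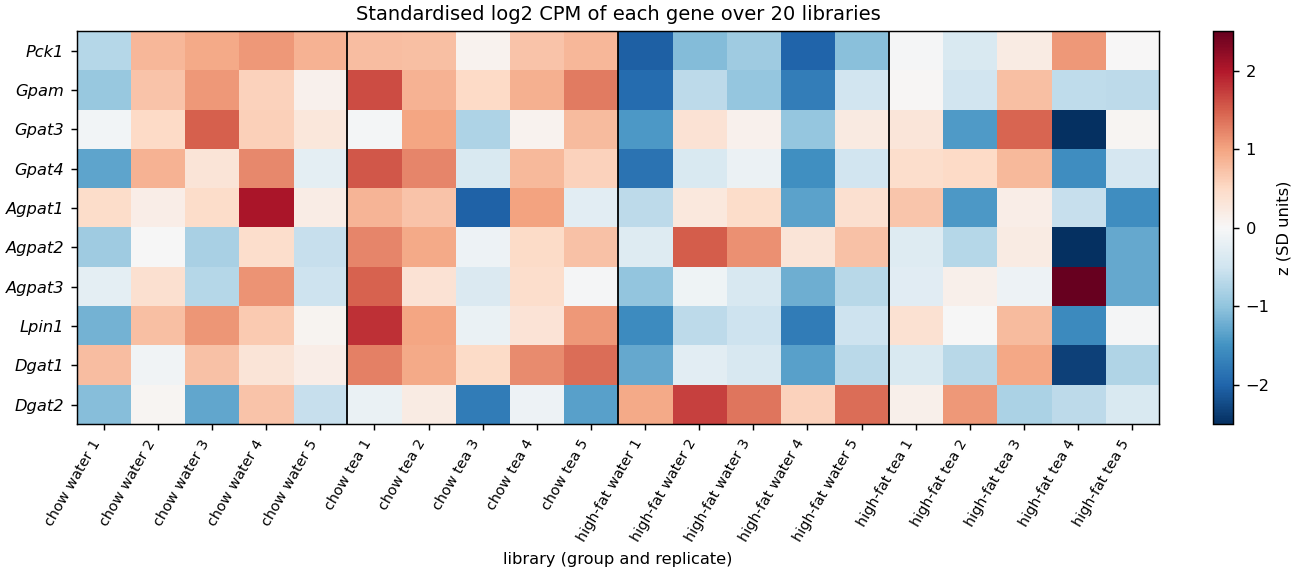
Standardised log2 CPM (z, in SD units over the 20 libraries, with colours limited to 2.5 on both sides of 0) of the 10 genes, with libraries in columns by group and replicate. In high-fat water, Pck1 and Gpam show low values and Dgat2 high ones, and in chow tea replicate 3 all 10 members are at the lowest level of their group.

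Tea against water under chow gave 0 called members, where 0.0235% of all tested genes were called by edgeR (0.0188% higher, 0.00469% lower). limma voom and DESeq2 also called 0 members, where they called 0.0282% and 1.23% of all tested genes. In edgeR, 1 member had an unadjusted p below 0.05, against 12.4% of all tested genes. That member was Agpat2, at 427.8, 374.2, 225, 301.6 and 338 CPM in chow tea against 157 to 294 CPM in chow water, with a log2 change of 0.69 (SE 0.307, adjusted p = 0.363). Its groups overlapped through chow tea replicate 3 alone. Pck1 was at 6878, 6802, 4674, 6633 and 7111 CPM in chow tea, with a log2 change of -0.04 (adjusted p = 0.984), and its sign turned under 5 alternatives. Gpam, at 505.1 to 857.4 CPM, had a log2 change of 0.45 (adjusted p = 0.507), and Dgat1, at 287.5 to 475.9 CPM, one of 0.53 (adjusted p = 0.541). Between the groups, 0 of the 10 members had libraries that did not overlap, against 2.56% of all tested genes. The 10 members had a median log2 change of 0.205, and all tested genes one of -0.034.

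High-fat tea against chow tea gives the change with diet in tea-drinking mice. It gave 0 called members, where 0.178% of all tested genes were called by edgeR (0.0375% higher, 0.141% lower), with 0 called by limma voom and 3 by DESeq2 (Gpam, Agpat2 and Dgat1, all lower), which called 4.32% of all tested genes. An unadjusted p below 0.05 was reached by 3 members, against 16.3% of all tested genes. Dgat1 had a log2 change of -1.12 (SE 0.327, adjusted p = 0.132), with 61.8 to 375.7 CPM in high-fat tea and 287.5 to 475.9 CPM in chow tea, and it was called without high-fat tea replicate 3 (log2 change -1.56, adjusted p = 0.0082). Agpat2 had a log2 change of -0.9955 (adjusted p = 0.15) and Gpam one of -0.82 (adjusted p = 0.159). Pck1 stood at -0.32 (SE 0.308, adjusted p = 0.649) and Dgat2 at 0.44. Libraries overlapped for all 10 members, where 2.77% of all tested genes did not overlap.

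The interaction asks whether the tea effect differed between diets. It gave 0 called members by edgeR, where 0.0657% of all tested genes were called (0.0329% in each direction), 0 by limma voom and 2 by DESeq2 (Agpat2, adjusted p = 0.0082, and Pck1, adjusted p = 0.0233), which called 3.24% of all tested genes. An unadjusted p below 0.05 was reached by 2 members in edgeR, against 15% of all tested genes. Agpat2 was higher with tea under chow and lower with tea under the high-fat diet in the fitted means, with an interaction of -1.74 on the log2 scale (SE 0.436, adjusted p = 0.116 by edgeR). This fit includes high-fat tea replicate 4, the library with kidney markers. With 1 library left out, the Agpat2 interaction was -1.96 to -1.54 (adjusted p = 0.0752 to 0.216 by edgeR). For Pck1 the interaction was 1.32 (SE 0.437, adjusted p = 0.161 by edgeR). Dgat2 had an interaction of -0.86 (adjusted p = 0.497), and the other 7 members had adjusted p-values of 0.715 or more. A difference in the tea effect between diets was therefore not called for any member by edgeR.

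Of 21 genes that supply acyl donors and the glycerol backbone, 5 were called lower and 0 higher in high-fat water against chow water, with a median log2 change of -0.26. Of all tested genes 7.11% were called lower and 8.06% higher, with a median of -0.00247. The list, like the members, was chosen with earlier results of these data known. Pcx, the pyruvate carboxylase that supplies oxaloacetate to Pck1, fell by 1.12 on the log2 scale, from 811.3 to 2663 CPM in chow water to 630.9 to 1115 CPM in high-fat water (adjusted p = 0.0112 by edgeR), and the call held in all 22 alternative fits. Pdk4, a kinase that shuts pyruvate dehydrogenase and so spares pyruvate, fell by 1.77 (adjusted p = 0.00755). Its call was lost in 1 of 22 alternative fits, without libraries over 1000 CPM of another organ's list (adjusted p = 0.0501). Pck2, the mitochondrial carboxykinase, fell by 0.88 (adjusted p = 0.0228), a call that was lost in 6 of 22 alternative fits. These include the fits without high-fat water replicate 2, 3 or 5 and without libraries over 1000 CPM of another organ's list. The other genes called lower were the pyruvate carrier subunit Mpc1 and Aqp3, a glycerol channel whose chow water libraries ran from 0 to 52.6 CPM. The calls of Mpc1 and Aqp3 were not followed through the alternative fits. Gpd1, which makes glycerol 3-phosphate from the glucose route, had a log2 change of -0.07 (adjusted p = 0.929), the acyl-CoA synthetase Acsl1 one of -0.82 (adjusted p = 0.0858), and the glycerol channel Aqp7 one of 0.03 (adjusted p = 0.958). Slc25a10, also in this list, went up without a call, from 21.0 to 64.7 CPM in chow water to 109.5 to 165.6 CPM in high-fat water. In high-fat tea against high-fat water, 0 of the 21 were called by edgeR, where 4.36% of all tested genes were called, with Pcx at 0.43 (adjusted p = 0.349).

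Of 16 other acyltransferases and phosphatases, 3 were called higher and 1 lower in high-fat water against chow water (8.06% and 7.11% of all tested genes). Lpgat1, an acyltransferase of lysophospholipids, rose by 2.10 on the log2 scale, from 84.7 to 182.5 CPM in chow water to 411.4 to 779.1 CPM in high-fat water (adjusted p = 0.000808 by edgeR). The cholesterol acyltransferase Soat1 rose by 2.10 (adjusted p = 0.0066), with high-fat water libraries from 30.0 to 244.8 CPM around a median of 50.6 CPM. The highest was replicate 4, where adrenal cortex markers summed to 13250 CPM against 3.66 to 8.56 CPM in the rest of the group, and without it Soat1 rose by 1.25 (adjusted p = 0.0135). Agpat4, of the AGPAT family, rose by 0.89 (adjusted p = 0.0226), a call not followed through the alternative fits. Soat2 was called lower through chow water replicate 1, the library with pancreatic transcripts, at 66.6 CPM against a group median of 0.407 CPM, and without that library its log2 change was -0.20 and not called. In high-fat tea against high-fat water, 0 of these genes were called higher and 2 lower (2.06% and 2.3% of all tested genes). Lpgat1 fell by 1.70 (adjusted p = 0.0108) to 85.6 to 338.6 CPM, and Soat1 fell by 1.93 (adjusted p = 0.0267). The Lpgat1 call was lost in 2 of 22 alternative fits, with only the groups compared and without libraries over 1000 CPM of another organ's list. Without high-fat water replicate 4, the library with adrenal cortex markers, the Soat1 change was -1.075 (adjusted p = 0.0552), and the call was also lost without replicate 1 of high-fat water or replicate 1, 2 or 3 of high-fat tea. The Soat1 call was lost in 9 of 22 alternative fits, among them those without libraries over 10000 or over 1000 CPM of another organ's list.

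Phosphatidate and diacylglycerol also feed phospholipid synthesis, and of 13 genes of that branch 1 was called higher and 2 lower in high-fat water against chow water, beside 8.06% and 7.11% of all tested genes. Crls1, the cardiolipin synthase of mitochondria, fell by 1.80 on the log2 scale, from 88.8 to 182.1 CPM in chow water to 36.2 to 54.4 CPM in high-fat water (adjusted p = 0.00109 by edgeR), and held its call in all 22 alternative fits. Cept1, which joins diacylglycerol to choline or ethanolamine head groups, fell by 0.71 (adjusted p = 0.00293). Its call was lost in 1 of 22 alternative fits, with no scaling beyond library size (adjusted p = 0.0628). Pgs1, which makes the precursor of phosphatidylglycerol, rose by 0.38 (adjusted p = 0.0235), a call lost in 7 of 22 alternative fits. These include the fits without high-fat water replicate 1, without 1 of chow water replicates 1 to 4, and without libraries over 1000 CPM of another organ's list. In high-fat tea against high-fat water, Crls1 rose by 1.499 (adjusted p = 0.0118) to 47.8 to 213.8 CPM. This call was lost in 2 of 22 alternative fits, with only the groups compared and without libraries over 1000 CPM of another organ's list. Pgs1 fell by 0.47 (adjusted p = 0.0217), a call lost in 8 of 22 alternative fits. These include the fits without high-fat water replicate 1 or 2, without high-fat tea replicate 2, and without libraries over 10000 or over 1000 CPM of another organ's list.

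Among 13 lipid droplet genes, 0 were called by edgeR in high-fat water against chow water, where 15.2% of all tested genes were called. Plin1, the main coat protein of fat cell droplets, had a log2 change of 0.36 (adjusted p = 0.477). In high-fat tea against high-fat water, 1 was called, where 2.06% of all tested genes were called higher and 2.3% lower. It was the lipase inhibitor Hilpda, which fell by 1.29 (adjusted p = 0.0374), a call lost in 12 of 22 alternative fits. These include each fit without replicate 1 or 2 of high-fat water, or without replicate 1, 2, 3 or 4 of high-fat tea. Of 14 transcription regulators, 1 was called lower and 0 higher in high-fat water against chow water, beside 7.11% and 8.06% of all tested genes. It was the coactivator Ppargc1b, which fell by 1.49 (adjusted p = 0.0196), a call lost in 4 of 22 alternative fits. These were the fits without replicate 4 of chow water, without replicate 1 of high-fat water, and without libraries over 10000 or over 1000 CPM of another organ's list. Pparg, the receptor that drives fat cell formation and Pck1 transcription, had a log2 change of -0.63 (adjusted p = 0.209) with diet and 0.26 (adjusted p = 0.693) with tea under the high-fat diet. In the other 3 comparisons, 0 genes of these 5 lists were called by edgeR. Of all tested genes, 0.0235% were called for tea under chow, 0.178% for diet in tea-drinking mice and 0.0657% for the interaction.

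Likeness of pattern was measured over the 20 libraries as the mean absolute difference between standardised log2 CPM values, among 12089 genes with a mean log2 CPM of at least 1, where the median gene stood 1.03 to 1.14 from a member. The genes nearest to Gpam were the alanine aminotransferase Gpt2 (0.185), Crat (0.23) and Cyp2e1 (0.233), and those nearest to Lpin1 were Fitm2 (0.24), Osbpl11 (0.241) and Abhd5 (0.264). For Pck1 they were Mettl7a1 (0.249), Fmo1 (0.266) and Aldh6a1 (0.282), and for Dgat1 they were the branched-chain aminotransferase Bcat2 (0.219), Acsl1 (0.278) and N4bp2l1 (0.295). Gpat4 was nearest to Slc25a44 (0.29), Lpin1 (0.291) and Sgta (0.315) and Agpat3 to Slc25a39 (0.264), Entpd5 (0.277) and Hagh (0.283), and among the genes near Dgat2 were Cmc2 (0.321) and Rasl12 (0.369). The nearest genes of Agpat2 were Clstn3 (0.356), Mrap (0.378) and Adam12 (0.379). The least close neighbours were those of Gpat3, namely Abhd15 (0.403), Dolk (0.411) and Trp53i13 (0.416), and of Agpat1, namely Tmem143 (0.501), Taf12 (0.516) and Lrrc8a (0.516). Among the members themselves the closest pair was Gpam and Lpin1 (0.274) and the farthest Dgat1 and Dgat2 (1.48), followed by Pck1 and Dgat2 (1.47). The genes share the libraries and their tissue make-up, so these values describe this set of samples only.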

How the data were processed

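RNA of 20 white adipose tissue samples was extracted with TRIzol and entered a stranded kit for polyadenylated RNA, per the labels' protocols. The authors deposited raw counts of reads in each gene as whole numbers. The submitters' processing notes list the tools featureCounts 2.0.6, HISAT2 2.2.1 and fastp 0.23.2. Per the file headers, reads in exons were summed by gene name on GENCODE vM32 (GRCm39), without a strand option and without counting pairs as 1 fragment. The submitters' processing notes name mm10, whereas the coordinates in the files are GRCm39. Of counts from 1 to 20, 68.1% to 72.2% were even, so counts overstate independent fragments. Gpat3 shares 37.4% of its exonic bases with other annotated genes, 1 of them on the opposite strand, so its reads are less certain. No pair of libraries within a group agreed within sampling noise.

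From these counts, edgeR 4.0.16 (R 4.3.3) removed 35499 low genes with filterByExpr (at least 10 counts, and 15 in total), scaled libraries by trimmed means of M values (TMM factors 0.587 to 1.2), and fitted 1 mean per group to the 20 libraries together, without covariates. Each SE is the log2 change divided by the square root of F. Alternatives were DESeq2 1.42.0, limma 3.58.1 voom, other scalings, no filter, only the groups compared, the replicate number as a block, marker covariates, and left-out libraries. The steps were tested on simulated data.

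All 10 members were named in every comparison. From each pathway list, up to 3 called genes with the lowest p were named, with the 3 nearest genes by pattern per member, of which 1 is not reported here. Other list genes named were chosen after their values were seen. The members and lists were chosen with earlier results of these data known.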

Additional observations from a re-analysis of the deposited data

Results flagged for a closer look

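In 4 of the 40 combinations of a member and a group, 1 library stood apart, its gap to the nearest other library taking more than 0.71 of the whole range of the group. Chance flags about 1 in 20 groups. For Pck1, chow water replicate 1 held 3002 CPM, where the next library held 7089 CPM. This is the library with 36.9% of its reads in the pancreas list. For Pck1 in chow tea, replicate 3 held 4674 CPM and the next library 6633 CPM, and this library was the lowest of its group for all 10 members and for the adipocyte list.

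For Agpat3, high-fat tea replicate 4, the library with kidney markers at 25140 CPM, held 415.8 CPM, above the next at 227.3 CPM. For Agpat1, chow water replicate 4 held 95.6 CPM, above the next at 74.85 CPM. The part of other tissues in these values was not tested.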

How the results depend on the processing

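Of 1190 refitted member changes, 1095 kept their direction and side of the threshold, 23 lost the call, 27 gained it and 45 changed sign, 0 of these with a call on either side. Left-out sets are each library in turn, and also, as an alternative added after seeing the data, the libraries with pancreas and kidney transcripts together. In high-fat water against chow water, the 3 members called became 5 with DESeq2, 5 with the kidney list as a covariate and 6 with the adipocyte list as a covariate. In these fits 20.7%, 17.5% and 24.8% of all tested genes were called. With libraries left out, 1 member (without high-fat water replicate 1) to 5 members (without the libraries with pancreas and kidney transcripts) were called, beside 8.69% and 21.6% of all tested genes. In high-fat tea against high-fat water, the 1 member called became 2 with DESeq2, 2 with limma voom and 4 with the adipocyte covariate, where 11.4%, 5.25% and 8.92% of all tested genes were called. It became 0 with no scaling, with only the groups compared, with the replicate block and without libraries over 1000 CPM of another organ's list. In these fits 1.59%, 0.107%, 2.97% and 0.0583% of all tested genes were called. With libraries left out it was 0 to 2, and 2 only without the libraries with pancreas and kidney transcripts (7.92% of all tested genes). In high-fat tea against chow tea, the 0 called became 3 with DESeq2 (4.32% of all tested genes) and 1 with the kidney covariate (0.817%). With libraries left out it was 0 to 1, and 1 only without high-fat tea replicate 3 (1.79% of all tested genes). In the interaction it became 2 with DESeq2 (3.24% of all tested genes). The cause was not tested. Under chow, tea gave 0 called members in all 22 alternatives. Among all tested genes, the number called was 1890 (without replicate 1 of high-fat water) to 5281 (adipocyte covariate) with diet in water-drinking mice, where 3232 were reported. With tea under the high-fat diet it was 13 (without the libraries over 1000 CPM) to 2431 (DESeq2), where 928 were reported. The other comparisons gave 0 to 261 (5 reported) for tea under chow, 5 to 921 (38 reported) for diet in tea-drinking mice and 0 to 691 (14 reported) for the interaction, with the highest by DESeq2. In those 3 comparisons DESeq2 called 91 higher and 170 lower (4 and 1 reported), 516 and 405 (8 and 30 reported) and 476 and 215 (7 and 7 reported), and edgeR with no scaling 2 and 0, 5 and 4, and 0 and 1.

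Replicate numbers showed no clear pairing of the mice, and a batch or cage shared by number was not tested. The median correlation of deviations was 0.0133 for same-numbered pairs and -0.0257 for pairs with different numbers. Of 30 same-numbered pairs, 9 had a correlation of deviations over 0.1 (range -0.27 to 0.475), and 4 of 20 libraries were closest to their own number. With the replicate block, 3 members were called with diet in water-drinking mice, where 12.3% of all tested genes were called. The Pck1 change with tea under the high-fat diet was 1.27 with the block (adjusted p = 0.0501 by edgeR).

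Members and list genes that changed sign had these log2 changes. For diet in water-drinking mice, Agpat1 (reported -0.19) was 0.056 with no scaling. Agpat3 (reported -0.21) was 0.028 with no scaling. Soat2 (reported -5.52) was 0.46 without the libraries over 1000 CPM. For tea under the high-fat diet, Gpat3 (reported 0.11) was -0.054 by limma voom, -0.11 without the libraries over 1000 CPM, -0.0092 with the adipocyte covariate and -0.24 to 0.34 with libraries left out. Dgat1 (reported 0.31) was -0.0061 without the libraries over 1000 CPM and -0.13 to 0.56 with libraries left out. For tea under chow, Lpin1 (reported 0.42) was -0.045 without the libraries over 1000 CPM. Dgat2 (reported -0.18) was -0.38 to 0.14 with libraries left out. Pck1 (reported -0.039) was 0.082 by limma voom, 0.028 with the replicate block and -0.25 to 0.057 with libraries left out. For diet in tea-drinking mice, Gpat3 (reported -0.21) was 0.0061 without those over 10000 CPM, 0.25 with the adipocyte covariate and -0.56 to 0.0072 with libraries left out. Gpat4 (reported -0.43) was 0.022 with the adipocyte covariate. Agpat3 (reported 0.036) was -0.021 with upper-quartile scaling, -0.021 by limma voom, -0.0085 with the replicate block, -0.24 without those over 10000 CPM, -0.20 without the libraries over 1000 CPM, -0.029 with the kidney covariate, -0.24 with the adipocyte covariate and -0.23 to 0.14 with libraries left out. In the interaction, Gpam (reported 0.19) was -0.0089 to 0.48 with libraries left out. Gpat3 (reported 0.30) was -0.051 to 0.65 with libraries left out. Agpat1 (reported 0.047) was -0.11 with no scaling, -0.071 without those over 10000 CPM, -0.051 without the libraries over 1000 CPM and -0.053 to 0.11 with libraries left out. Agpat3 (reported 0.25) was -0.058 without those over 10000 CPM, -0.0026 without the libraries over 1000 CPM and -0.018 to 0.36 with libraries left out. Dgat1 (reported -0.22) was 0.016 with the adipocyte covariate and -0.66 to 0.0052 with libraries left out.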
